A study of Homo sapiens with 9 samples.

Results

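Collagen genes were followed through neural differentiation of human embryonic stem cells and through treatment with bafilomycin A1, an inhibitor of lysosomal acidification. They were the protein-coding rows of the deposited count table whose symbol reads COL, a number, A and a number, and 44 of the 46427 genes in the table met that rule. By the molecule they build, 11 were fibrillar, 8 were of basement membranes and 25 were of other kinds. All libraries came from H9, so the results concern 1 established line of human embryonic stem cells (hESC). Neural progenitor cells (NPC) treated with bafilomycin A1 (BafA1 NPC) and untreated NPC (control NPC) were both taken at day 11 of differentiation toward midbrain dopamine neurons, and the third group was undifferentiated, untreated hESC. Each group had 3 libraries. Both NPC groups had been exposed, at set times, to the BMP receptor inhibitor LDN193189 (200 nM), the TGF-beta receptor inhibitor SB431542 (10 µM), the Hedgehog agonist purmorphamine (2 µM) and the WNT activator CHIR99021 (3 µM). BafA1, which inhibits the vacuolar proton pump of lysosomes, was given at 10 nM for 6 h. More than 1 window of days is listed for this exposure, and the sequenced cells are tied to none of them. Replicates are called biological without naming separate cultures, so p-values measure the spread between these libraries.

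Collagens are proteins in which 3 chains wind into a triple helix, and each chain has a gene of its own. Fibrillar collagens form the rope-like fibrils of connective tissue, while type IV collagen forms the sheet that underlies epithelia, the neuroepithelium included, and the vessels of the brain. The chains are hydroxylated and folded in the endoplasmic reticulum, leave it in enlarged carriers, are trimmed and cross-linked outside the cell, and are degraded in part by lysosomes.

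The 9 libraries held 43124679 to 69703791 counts. Levels are given in CPM, counts scaled to library size with TMM factors, for 1 gene across libraries. They are given in FPKM, the authors' length-corrected unit, where genes are compared with each other. A gene was called higher or lower at an adjusted p under 0.05 in edgeR's quasi-likelihood test, adjusted over all 20685 genes tested. The labelled cell states were matched by their markers. The 6 pluripotency genes summed to 53.0 to 55.8 CPM in BafA1 NPC, 59.0 to 67.8 CPM in control NPC and 3576 to 3774 CPM in hESC. The 10 neural progenitor genes summed to 9392 to 12252 CPM in BafA1 NPC, 6236 to 7027 CPM in control NPC and 669 to 720 CPM in hESC. The filament gene VIM, which mesenchymal cells express too, held most of the progenitor sum in NPC, with 7622, 10301 and 10803 CPM in BafA1 NPC and 4925, 5633 and 4748 CPM in control NPC. Without it, a division made after its values were seen, the other 9 summed to 1449 to 1770 CPM in BafA1 NPC and 1311 to 1641 CPM in control NPC, which overlapped, and 591 to 634 CPM in hESC. Of the 10, 5 were called higher in BafA1 NPC than in control NPC and SOX1 lower, at -0.67 ± 0.20 (SE, adjusted p = 0.0202), beside 20.8% and 20.7% of all genes. No library was left out.

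Collagen transcripts took 0.877, 0.759 and 0.826% of all counts in the BafA1 NPC libraries, 0.725, 0.599 and 0.534% in the control NPC libraries and 0.198, 0.179 and 0.190% in hESC. The groups did not overlap. The summed FPKM of the fibrillar genes was 669, 590 and 705 in BafA1 NPC, 625, 504 and 422 in control NPC and 53.9, 50.0 and 55.6 in hESC. One control NPC library thus lay above the lowest BafA1 NPC library. Basement membrane genes summed to 387, 311 and 391 FPKM in BafA1 NPC, 297, 258 and 226 FPKM in control NPC and 141, 127 and 133 FPKM in hESC, with no overlap between groups. The remaining genes summed to 149, 130 and 144 FPKM in BafA1 NPC, 125, 112 and 107 FPKM in control NPC and 151, 133 and 146 FPKM in hESC. In that class control NPC lay below hESC in FPKM, but their summed CPM was 660 to 795 in control NPC, against 589 to 658 in hESC, so the direction depended on the unit. In bulk RNA, fewer cells of a type and less RNA per cell cannot be told apart.

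**Figure D1:**
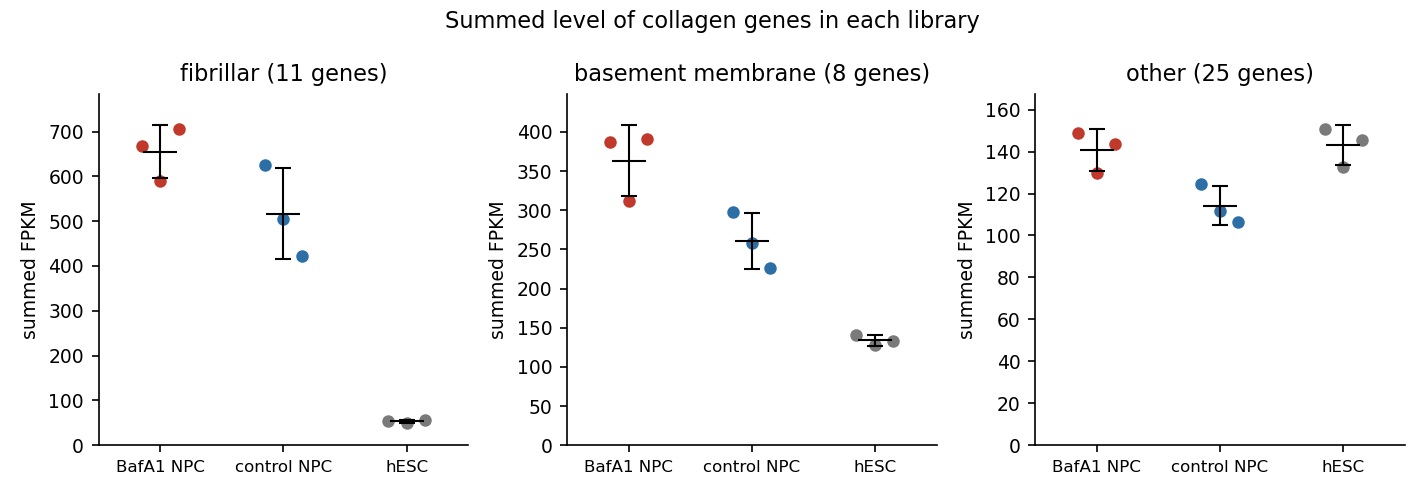
Summed FPKM (vertical axis) of 11 fibrillar, 8 basement membrane and 25 other collagen genes in each library of BafA1 NPC, control NPC and hESC. Points are libraries, the horizontal mark is the mean and the bar is the SD (n = 3). Fibrillar genes sat at 422 to 705 FPKM in both NPC groups and at 50.0 to 55.6 FPKM in hESC.

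The order of the genes differed between the cell states. COL1A1, the main chain of type I collagen, led in BafA1 NPC with 270.1 ± 27.6 FPKM and in control NPC with 185 ± 56 FPKM (SD, n = 3). Its partner chain COL1A2 followed with 176 ± 18.5 FPKM in BafA1 NPC and 131 ± 32.7 FPKM in control NPC. In hESC the leading gene was COL18A1, with 70.8 ± 3.93 FPKM or 21.5% of the collagen sum. Its share was 10.6% in BafA1 NPC and 10.5% in control NPC. COL6A2 came next in hESC with 41.5 ± 3.62 FPKM, then COL6A1 with 33.9 ± 1.91 FPKM. Neighbours in that order did not always differ beyond their spread, as for COL4A2 (94.3 ± 11.4 FPKM) and COL4A1 (91.2 ± 18.6 FPKM) in BafA1 NPC. The 5 highest genes held 65.1% of the collagen sum in BafA1 NPC, 60.6% in control NPC and 57.5% in hESC.

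Of the 44 genes, 41 passed the filter on low counts. COL10A1, COL19A1 and COL6A5 did not, with at most 17 counts over a whole group. In BafA1 NPC against control NPC, 19 of the 41 were called higher and 3 lower. Over all genes tested the shares called were 20.8% higher and 20.7% lower. Scaled by library totals alone, the calls over all genes split into 35.3% higher, against 50.2% with TMM, and the median of all genes moved by -0.12 on the log2 scale. Under that scaling 18 collagens were called higher and 3 lower. The median log2 fold change of the tested collagens was 0.49, beside 0 for all genes. By class, 6 of 11 fibrillar genes were called higher and 1 lower, 3 of 8 basement membrane genes were called higher and none lower, and 10 of 22 tested genes of other kinds were called higher and 2 lower. At least 2-fold rises were called for 7 collagens, beside 6.37% of all genes. Libraries of the NPC groups did not overlap in 22 collagens, 19 with BafA1 NPC above and 3 below, beside 24.1% and 25.1% of all genes.

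In control NPC against hESC, 21 of the 41 were called higher and 14 lower, beside 33% and 31.6% of all genes. Libraries of these groups did not overlap in 36 collagens, 20 with control NPC above and 16 below, beside 37% and 35.8% of all genes. The directions were split by class. Of the fibrillar genes 8 of 11 were called higher and 2 lower, of the basement membrane genes 7 of 8 were called higher and none lower, and of the other genes 6 of 22 were called higher and 12 lower. The median log2 fold change was 2.72 for fibrillar, 1.09 for basement membrane and -0.71 for other collagens, beside 0.03 for all genes. BafA1 NPC set against the same hESC libraries gave 24 collagens higher and 13 lower, beside 35.5% and 34.8% of all genes. Because the comparisons share libraries, their agreement is not separate evidence.

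**Figure D2:**
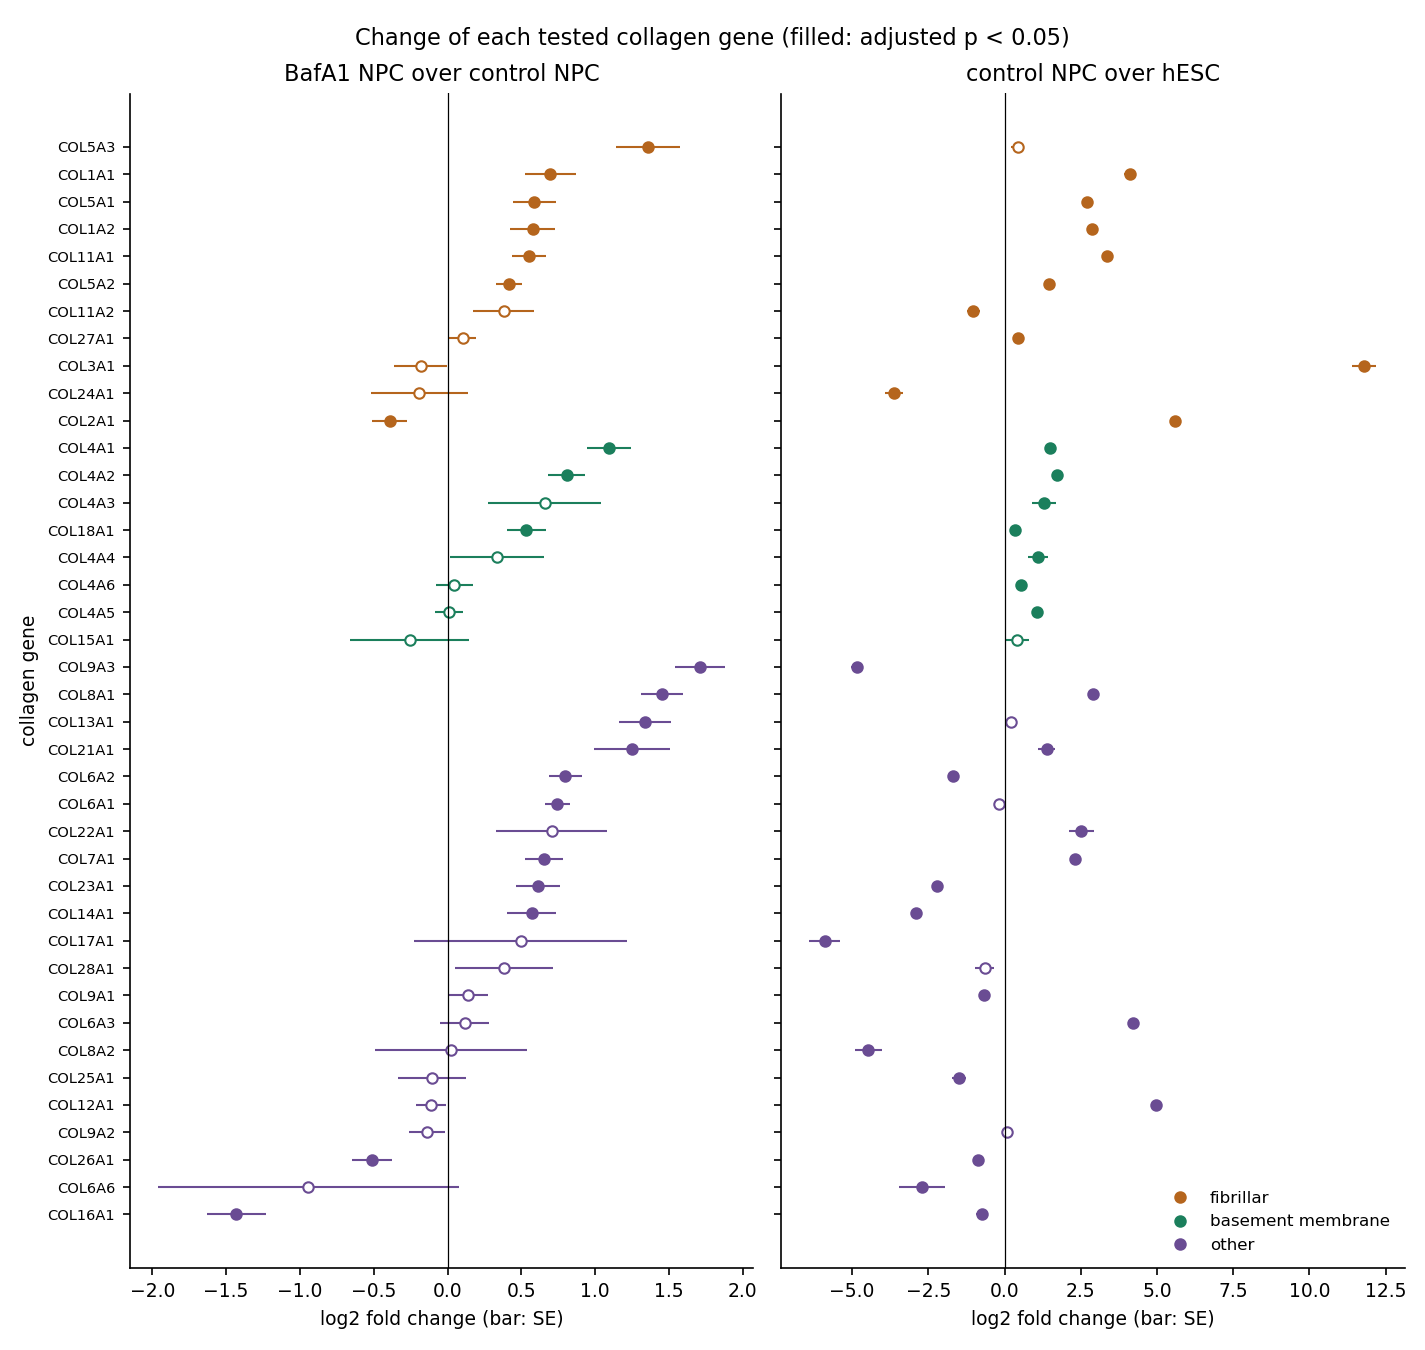
Log2 fold change (horizontal axis, bar: SE) of 40 tested collagen genes in BafA1 NPC over control NPC (left) and control NPC over hESC (right), sorted within class by the left panel. Filled points passed an adjusted p of 0.05. Most filled points of the left panel lie right of 0, up to 1.71 for COL9A3, with COL16A1 at the low end at -1.43. COL20A1 is not drawn because control NPC had no counts.

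Type I collagen, the most abundant fibrillar type, was higher in BafA1 NPC in both of its chains. COL1A1 had 1939, 1847 and 2103 CPM in BafA1 NPC, against 1588, 1176 and 868 CPM in control NPC and 70.5, 68 and 72.2 CPM in hESC. The NPC groups did not overlap, though the control NPC libraries spread widely, with the first close to the BafA1 NPC range. The log2 fold change was 0.70 ± 0.17 (SE, adjusted p = 0.00683) in BafA1 NPC over control NPC and 4.11 ± 0.19 (SE, adjusted p = 4.49e-09) in control NPC over hESC. COL1A2 had 1019, 1071 and 1207 CPM in BafA1 NPC, against 923, 725 and 564 CPM in control NPC and 105, 95.6 and 105 CPM in hESC. Again all BafA1 NPC libraries were above all control NPC libraries, with a log2 fold change of 0.58 ± 0.15 (SE, adjusted p = 0.00989), and of 2.85 ± 0.16 (SE, adjusted p = 2.18e-08) in control NPC over hESC.

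Type V and XI chains start fibrils and set their width. Of their 5 genes, COL5A1, COL5A2 and COL11A1 were called higher in both comparisons, as both type I genes were. COL5A1 had 327, 264 and 311 CPM in BafA1 NPC, 249, 197 and 155 CPM in control NPC and 31.3, 29.8 and 30.2 CPM in hESC. COL5A2 had 225, 227 and 250.1 CPM in BafA1 NPC, 193, 164 and 169 CPM in control NPC and 65.6, 59.9 and 64.1 CPM in hESC. COL11A1, a type XI chain, had 724, 687 and 789.7 CPM in BafA1 NPC, 541, 494 and 466 CPM in control NPC and 49, 40.9 and 55.5 CPM in hESC. None of these genes overlapped between the 3 groups, and each was highest in BafA1 NPC. Their log2 fold changes in BafA1 NPC over control NPC were 0.59 ± 0.15 (SE, adjusted p = 0.00723) for COL5A1, 0.42 ± 0.09 (SE, adjusted p = 0.00282) for COL5A2 and 0.55 ± 0.12 (SE, adjusted p = 0.00287) for COL11A1. The same genes stood at 2.72 ± 0.16 for COL5A1, 1.47 ± 0.09 for COL5A2 and 3.37 ± 0.13 for COL11A1 (SE) in control NPC over hESC, all called. The lesser type V chain gene COL5A3 had 5.82, 7.92 and 9.44 CPM in BafA1 NPC, against 2.58, 3.34 and 3.11 CPM in control NPC and 2.61, 1.78 and 2.32 CPM in hESC. It had the largest estimate of the fibrillar genes in BafA1 NPC over control NPC, at 1.36 ± 0.21 (SE, adjusted p = 0.000461), while control NPC and hESC libraries overlapped, at 0.43 ± 0.22 (SE, adjusted p = 0.105). That second comparison passed the threshold with library totals alone, at 0.53 (adjusted p = 0.0415), and with GC and length trends removed, at 0.67 (adjusted p = 0.0268). Some COL5A3 exons are overlapped by a gene on the other strand. The second type XI gene, COL11A2, had 2.35, 2.1 and 2.83 CPM in BafA1 NPC, 1.52, 1.74 and 2.34 CPM in control NPC and 3.69, 3.99 and 3.72 CPM in hESC. Its NPC libraries overlapped, at 0.38 ± 0.21 (SE, adjusted p = 0.161), and it was called lower in control NPC than in hESC, at -1.02 ± 0.20 (SE, adjusted p = 0.000841).

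COL2A1 went the other way in BafA1 NPC. It encodes type II collagen, the fibril of cartilage, which is also made by notochord and early neuroepithelium. Its values were 348, 299.5 and 269.6 CPM in BafA1 NPC, against 424, 363 and 416 CPM in control NPC and 9.43, 7.32 and 8.23 CPM in hESC. All BafA1 NPC libraries were below all control NPC libraries, the first BafA1 NPC and second control NPC library only narrowly. The log2 fold change was -0.39 ± 0.12 (SE, adjusted p = 0.0196), and the call was lost without the second BafA1 NPC library (adjusted p = 0.0526), the third (adjusted p = 0.0813) or the first control NPC library (adjusted p = 0.0626). Against hESC, control NPC stood at 5.59 ± 0.15 (SE, adjusted p = 4.29e-11). The cartilage and notochord markers were low beside it, their 8 genes summing to 24.7 to 28.3 CPM in BafA1 NPC, 23.1 to 31.2 CPM in control NPC and 49.8 to 63.6 CPM in hESC. Of these, the notochord gene NOTO had no count in control NPC, and SOX9, an activator of COL2A1 in cartilage, had 7.77, 8.11 and 7.26 CPM in BafA1 NPC, against 13.3, 12.7 and 9.29 CPM in control NPC and 13.3, 13.3 and 15.3 CPM in hESC. SOX9 was called lower in BafA1 NPC, at -0.61 ± 0.15 (SE, adjusted p = 0.00594). COMP, a cartilage matrix protein, was called higher, with 3.97, 3.07 and 4.36 CPM in BafA1 NPC, 0.847, 0.355 and 0.369 CPM in control NPC and 0, 0 and 0.188 CPM in hESC, at 2.87 ± 0.56 (SE, adjusted p = 0.00187). These were the calls among 7 tested genes of the list, 1 higher and 1 lower, beside 20.8% and 20.7% of all genes. The part of these genes in the COL2A1 difference was not tested.

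COL3A1, the fibril of soft tissue and vessel walls, had 92.4, 83 and 58.4 CPM in BafA1 NPC, against 90.6, 74.3 and 100.4 CPM in control NPC. The 2 NPC groups overlapped, and the log2 fold change of -0.18 ± 0.18 (SE, adjusted p = 0.449) was not called. In hESC it had 0, 0 and 4 counts. The summed counts of control NPC were 4220 times those of hESC after scaling, with a 95% counting interval of 1648 to 15489 that covers counting error only. COL27A1, a fibrillar collagen of cartilage, had 76.4, 63.7 and 79.5 CPM in BafA1 NPC, 70.3, 68.1 and 66.2 CPM in control NPC and 50.9, 51.2 and 49.2 CPM in hESC. It overlapped between the NPC groups (0.10 ± 0.09 (SE, adjusted p = 0.387)) and was called higher in control NPC than in hESC (0.44 ± 0.09 (SE, adjusted p = 0.00101)). COL24A1 was, beside COL11A2, the other fibrillar gene called lower in control NPC than in hESC. COL24A1, described in bone of the mouse, had 0.218, 0.268 and 0.217 CPM in BafA1 NPC, 0.154, 0.321 and 0.317 CPM in control NPC and 3.09, 3.46 and 3.38 CPM in hESC, a log2 fold change of -3.63 ± 0.29 (SE, adjusted p = 3.73e-07) between the last 2 groups.

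Markers of other cell types that make fibrillar collagen were present in the NPC cultures and moved in both directions. The 10 mesenchyme and fibroblast genes summed to 180 to 190 CPM in BafA1 NPC, 212 to 276 CPM in control NPC and 423 to 462 CPM in hESC. THY1, which undifferentiated hESC also express, held most of the hESC sum with 443, 407 and 440.1 CPM. PRRX1, a mesenchymal transcription factor, had 18.4, 13.6 and 13.2 CPM in BafA1 NPC, against 53.5, 35.6 and 42.1 CPM in control NPC and 0, 0.092 and 0 CPM in hESC. It was called lower in BafA1 NPC, at -1.54 ± 0.21 (SE, adjusted p = 0.000218), while the receptor gene PDGFRA was called higher, at 0.49 ± 0.11 (SE, adjusted p = 0.00433). In all, 2 of the 10 were called higher and 4 lower in BafA1 NPC, beside 20.8% and 20.7% of all genes, so the number higher was near the background. In control NPC 8 were called higher and 1 lower than in hESC, beside 33% and 31.6% of all genes. The 6 muscle genes, in NPC almost wholly the smooth muscle actin ACTA2, summed to 212 to 225 CPM in BafA1 NPC, 97.3 to 131 CPM in control NPC and 5.08 to 5.71 CPM in hESC. The muscle sums of the NPC groups did not overlap. Of 4 tested muscle genes ACTA2, DES and MYH11 were called higher in BafA1 NPC than in control NPC and none lower (median log2 fold change 1.21). Of all genes, 20.8% were called higher and 20.7% lower. The skeletal muscle regulator MYOG had no count in any group. The 9 meningeal and pericyte genes summed to 60.8 to 85.3 CPM in BafA1 NPC, 68.4 to 104 CPM in control NPC and 24.0 to 26.4 CPM in hESC. The 8 neural crest genes summed to 103 to 129 CPM in BafA1 NPC, 68.7 to 96.6 CPM in control NPC and 121 to 128 CPM in hESC, with FOXD3 at 0 in both NPC groups. The NPC groups did not overlap in that sum. Of 7 tested crest genes 2 were called higher in BafA1 NPC than in control NPC and none lower. Beside 20.8% and 20.7% of all genes, the number higher was near the background. NGFR, a neurotrophin receptor, had 23.5, 31.1 and 32.9 CPM in BafA1 NPC, 8.41, 9.91 and 8.5 CPM in control NPC and 39.1, 31 and 40.7 CPM in hESC, at 1.70 ± 0.15 (SE, adjusted p = 1.59e-05) between the NPC groups. SOX10, a crest transcription factor, was also called (adjusted p = 0.0195), with 0, 7 and 8 counts in BafA1 NPC and none in control NPC. The 7 endothelial genes summed to 21.3 to 26.7 CPM in BafA1 NPC, 26.2 to 35.0 CPM in control NPC and 64.7 to 71.0 CPM in hESC. The part of these cell types in the collagen differences was not tested.

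Type IV collagen is built from 6 chains whose genes lie in 3 head-to-head pairs, each pair sharing the stretch between its starts. In RefSeq on GRCh38.p14, COL4A1 and COL4A2 start 126 bases apart on chromosome 13, COL4A4 and COL4A3 start 135 bases apart on chromosome 2, and COL4A6 and COL4A5 start 379 bases apart on chromosome X. The whole stretch of the first pair is shown because both of its genes were higher in BafA1 NPC, beside 126 bases before the start of COL4A5 and of COL4A3, from the pairs that were not called. All are 5′ to 3′ on the plus strand of GRCh38.p14, from RefSeq promoter sequences, in which 32 of the 44 collagen genes had an entry. Capitals mark CCAAT (the box bound by NF-Y), GGGCGG (the GC box bound by SP1) and ACGTG or GCGTG (cores of the site bound by HIF), searched on both strands. No 2 matches overlapped in these stretches.
COL4A1 to COL4A2, chr13:110307158-110307283: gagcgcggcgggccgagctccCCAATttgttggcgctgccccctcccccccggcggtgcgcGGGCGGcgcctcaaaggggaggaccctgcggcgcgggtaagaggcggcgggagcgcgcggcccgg
COL4A5, chrX:108439712-108439837: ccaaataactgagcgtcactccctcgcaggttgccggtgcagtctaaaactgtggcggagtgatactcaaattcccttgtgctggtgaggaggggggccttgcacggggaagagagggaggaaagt
COL4A3, chr2:227164498-227164623: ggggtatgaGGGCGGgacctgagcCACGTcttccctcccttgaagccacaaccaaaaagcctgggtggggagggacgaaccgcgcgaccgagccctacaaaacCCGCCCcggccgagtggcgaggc
The COL4A1 and COL4A2 stretch was 80.2% G and C and held 1 CCAAT and 1 GGGCGG. The COL4A5 stretch was 56.3% G and C with no match. It is only a part of the 379 bases of its pair, and the rest was not searched. The COL4A3 stretch was 67.5% G and C with 2 GGGCGG and 1 ACGTG. Of 35116 windows of the same length before RefSeq starts, 21.1% held CCAAT, 34.6% GGGCGG, 10.9% ACGTG and 20.7% GCGTG, with a median of 60.3% G and C. A match describes the letters only.

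The COL4A1 and COL4A2 chains form the network found in nearly all basement membranes. COL4A1 had 702, 689 and 922 CPM in BafA1 NPC, against 434, 354 and 297 CPM in control NPC and 140.2, 119.7 and 123 CPM in hESC. COL4A2 had 737, 691 and 819 CPM in BafA1 NPC, against 506, 416 and 362 CPM in control NPC and 139.9, 123 and 122 CPM in hESC. For both genes the 3 groups stood apart without overlap. In BafA1 NPC over control NPC the log2 fold change was 1.09 ± 0.15 (SE, adjusted p = 0.000204) for COL4A1 and 0.81 ± 0.13 (SE, adjusted p = 0.000414) for COL4A2. Control NPC over hESC gave 1.50 ± 0.15 (SE, adjusted p = 3.56e-06) for COL4A1 and 1.74 ± 0.13 (SE, adjusted p = 2.18e-07) for COL4A2. All of these calls held under the 19 alternatives run. Some exons of COL4A2 are overlapped by its antisense genes, and the sources used here do not say whether counting used strand.

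The other type IV pairs did not pass the test between the NPC groups. COL4A5, whose chain serves the kidney filter and other specialised membranes, had 313, 246 and 278 CPM in BafA1 NPC, against 276, 268 and 286 CPM in control NPC and 131, 129 and 136 CPM in hESC. COL4A6 had 140.2, 99.7 and 104 CPM in BafA1 NPC, against 113, 99.6 and 121 CPM in control NPC and 79.2, 73.7 and 75.8 CPM in hESC. The NPC groups overlapped in both genes, with log2 fold changes of 0.01 ± 0.09 (SE, adjusted p = 0.945) for COL4A5 and 0.05 ± 0.12 (SE, adjusted p = 0.797) for COL4A6. Both were called higher in control NPC than in hESC, by 1.07 ± 0.10 (SE, adjusted p = 1.09e-06) for COL4A5 and 0.54 ± 0.12 (SE, adjusted p = 0.00219) for COL4A6. COL4A4 had 32.3, 13.3 and 18.5 CPM in BafA1 NPC, against 14.5, 11.1 and 25.4 CPM in control NPC and 7.34, 8.61 and 7.69 CPM in hESC. Its partner COL4A3 had 21.7, 9.48 and 14.7 CPM in BafA1 NPC, against 7.56, 4.98 and 16.6 CPM in control NPC and 3.79, 4.8 and 3.32 CPM in hESC. In both genes the first BafA1 NPC and the third control NPC library were the highest of their groups, and the groups overlapped. Between the NPC groups the estimates were 0.34 ± 0.32 (SE, adjusted p = 0.426) for COL4A4 and 0.66 ± 0.38 (SE, adjusted p = 0.191) for COL4A3. In control NPC over hESC both were called, at 1.11 ± 0.33 (SE, adjusted p = 0.0102) for COL4A4 and 1.29 ± 0.40 (SE, adjusted p = 0.0133) for COL4A3. The COL4A4 call was lost without the third control NPC library, at 0.70 (adjusted p = 0.0584), and with limma on log2(FPKM + 1), at 0.51 (adjusted p = 0.0702). The COL4A3 call was not followed through the alternatives. Some COL4A3 exons are overlapped by a gene on the other strand.

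**Figure D3:**
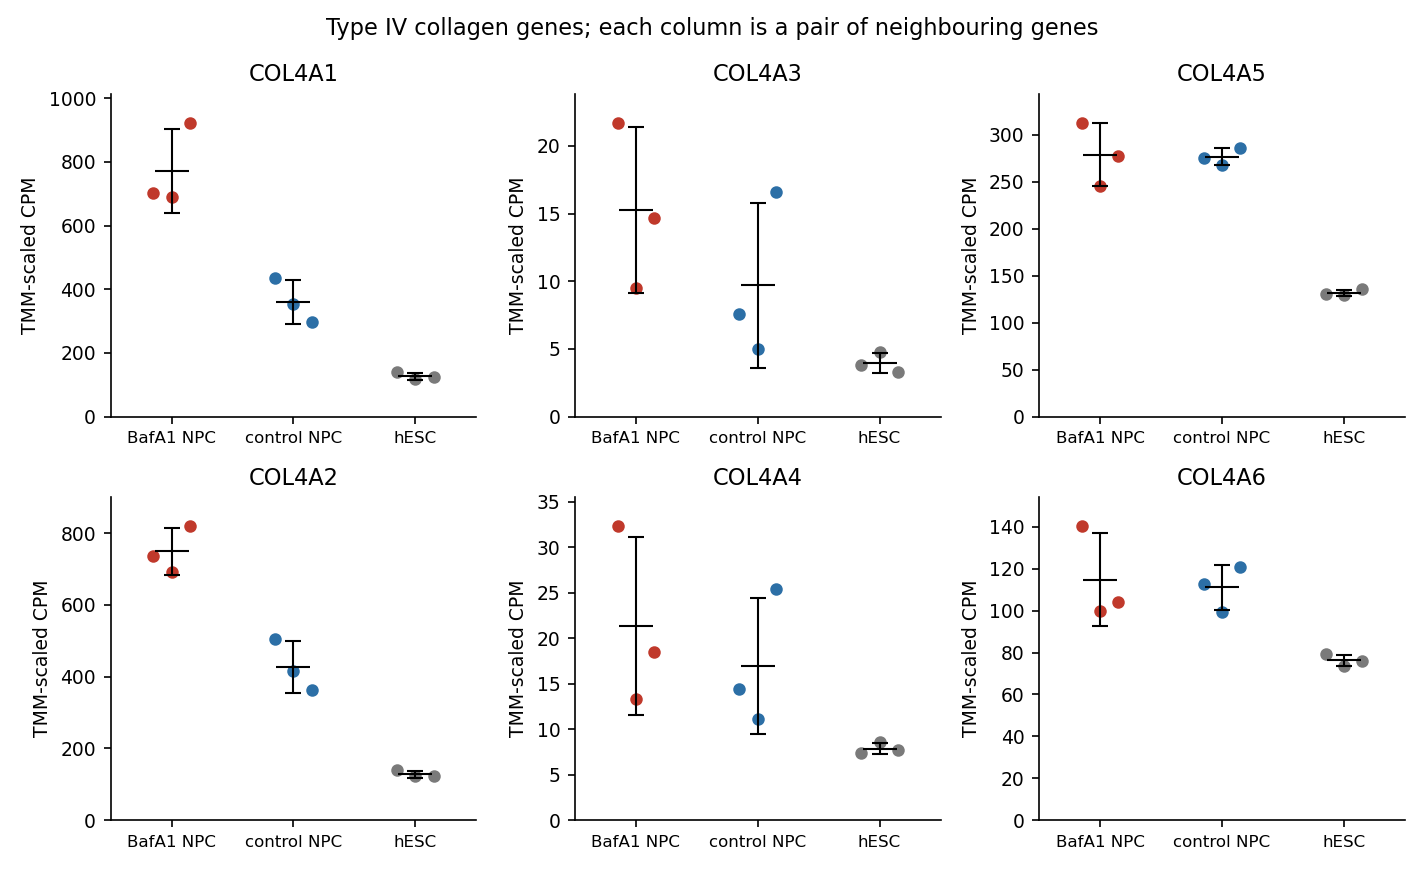
TMM-scaled CPM (vertical axis) of the 6 type IV collagen genes in each library of BafA1 NPC, control NPC and hESC, with mean and SD (n = 3). Each column of panels holds a pair of neighbouring genes. COL4A1 and COL4A2 lie highest in BafA1 NPC, at 689 to 922 CPM, while COL4A5 and COL4A6 overlap between the NPC groups.

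COL18A1 encodes a collagen of basement membranes whose end fragment is endostatin. It had 905, 774 and 780.3 CPM in BafA1 NPC, against 673, 569 and 458 CPM in control NPC and 475, 428 and 429.6 CPM in hESC. The BafA1 NPC libraries were above all others, and the control NPC and hESC libraries overlapped. The log2 fold change was 0.53 ± 0.13 (SE, adjusted p = 0.00726) in BafA1 NPC over control NPC. Control NPC over hESC gave 0.35 ± 0.13 (SE, adjusted p = 0.0338), a call lost with size factors in place of TMM (adjusted p = 0.0603) and without any of 4 libraries, the lowest estimate being 0.21 (adjusted p = 0.156) without the first control NPC library. COL18A1 exons overlap SLC19A1 on the other strand. The related gene COL15A1 had 9 to 23 counts in any library and passed neither test.

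FACIT collagens sit on the surface of fibrils and link them to other matrix, and they were called in both directions. COL9A3, a type IX chain, had 3.68, 3.95 and 4.59 CPM in BafA1 NPC, against 0.982, 1.18 and 1.57 CPM in control NPC and 38.5, 32.7 and 36.8 CPM in hESC. The groups did not overlap. It had the largest rise in BafA1 NPC over control NPC of the collagens with counts in all groups, 1.71 ± 0.17 (SE, adjusted p = 3.13e-05), and it was far lower in control NPC than in hESC, at -4.85 ± 0.17 (SE, adjusted p = 5.12e-10). Its exons overlap TCFL5 on the other strand. The type IX chain COL9A1 had 24.3, 21.6 and 18.7 CPM in BafA1 NPC, 16, 19.3 and 23.4 CPM in control NPC and 33, 29.3 and 32.1 CPM in hESC, and COL9A2 lay between 8.19 and 10.3 CPM in all libraries. Neither was called between the NPC groups (0.14 ± 0.14 (SE, adjusted p = 0.449) for COL9A1 and -0.14 ± 0.12 (SE, adjusted p = 0.391) for COL9A2). COL9A1 was called lower in control NPC than in hESC, at -0.69 ± 0.14 (SE, adjusted p = 0.000882).

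COL16A1 had the largest called fall in BafA1 NPC. It had 4.13, 5.21 and 4.21 CPM in BafA1 NPC, against 16.4, 10.3 and 9.75 CPM in control NPC and 22.2, 18.1 and 20.5 CPM in hESC. The 3 groups did not overlap, with BafA1 NPC lowest and hESC highest. The log2 fold change was -1.43 ± 0.20 (SE, adjusted p = 0.000201) in BafA1 NPC over control NPC and -0.74 ± 0.19 (SE, adjusted p = 0.00432) in control NPC over hESC, and the second call was lost with GC and length trends removed, at -0.38 (adjusted p = 0.0796). Some COL16A1 exons are overlapped by a gene on the other strand. COL21A1 had 12.4, 16.9 and 15.2 CPM in BafA1 NPC, against 3.6, 6.42 and 8.62 CPM in control NPC and 2.61, 2.54 and 2.01 CPM in hESC. It was highest in every BafA1 NPC library, at 1.25 ± 0.26 (SE, adjusted p = 0.00244), and higher in control NPC than in hESC, at 1.38 ± 0.27 (SE, adjusted p = 0.000706). COL14A1 had 7.52, 5.26 and 7.75 CPM in BafA1 NPC, against 4.5, 3.83 and 5.56 CPM in control NPC and 35.5, 34.1 and 33.6 CPM in hESC. The NPC groups overlapped, and the call of 0.57 ± 0.17 (SE, adjusted p = 0.0164) was lost in 5 of 19 alternatives, among them library totals alone (adjusted p = 0.0578). It was lower in control NPC than in hESC, at -2.89 ± 0.17 (SE, adjusted p = 2.7e-08).

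COL12A1 and COL22A1 were far higher in NPC than in hESC and were not called between the NPC groups. COL12A1, a collagen of dense connective tissue, had 96.5, 82.5 and 90.8 CPM in BafA1 NPC, 110.5, 95.3 and 85.6 CPM in control NPC and 3.21, 3.15 and 2.92 CPM in hESC. Its log2 fold change was -0.11 ± 0.10 (SE, adjusted p = 0.402) in BafA1 NPC over control NPC and 4.97 ± 0.12 (SE, adjusted p = 3.67e-11) in control NPC over hESC. COL22A1, a collagen of tissue junctions, had 83.6, 45.8 and 39.2 CPM in BafA1 NPC, 21.1, 21.2 and 61.1 CPM in control NPC and 6.02, 6.22 and 5.86 CPM in hESC. The third control NPC library lay among the BafA1 NPC libraries, and the estimate of 0.70 ± 0.38 (SE, adjusted p = 0.155) became 1.41 (adjusted p = 0.00164) without it. Control NPC over hESC gave 2.51 ± 0.41 (SE, adjusted p = 0.000184). COL20A1 had 12, 16 and 3 counts in BafA1 NPC, no count in control NPC and 12, 8 and 5 counts in hESC. It was called higher in BafA1 NPC (adjusted p = 0.00604) and lower in control NPC than in hESC (adjusted p = 0.00647), at levels near the floor of 3 counts per library.

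The deposited values also implied another average length of COL12A1 transcripts in the 2 NPC groups than in hESC. A count divided by its FPKM is proportional to the mean length of the transcripts counted. In 1854 genes with 1 transcript this length varied by under 0.5% between libraries. Such genes have a fixed length, so their steadiness checks the relation only. It gives no error for genes with several transcripts, such as COL12A1. For COL12A1 the implied length was 11200, 11003 and 10849 nt in BafA1 NPC, 10876, 10693 and 10798 nt in control NPC and 11819, 11842 and 11808 nt in hESC. All NPC libraries lay below all hESC libraries, with means of 10789 nt in control NPC and 11823 nt in hESC, while the NPC groups overlapped. Of 6 transcripts listed for COL12A1, 2 had an annotated length through their link to RefSeq, 11723 and 5886 nt. The implied lengths in hESC lay above both. The hESC libraries had as few as 171 counts of COL12A1. For comparison, COL18A1 gave 5430 to 5434 nt in BafA1 NPC, 5436 to 5440 nt in control NPC and 5433 to 5442 nt in hESC. Other collagens were less steady. COL21A1 also had all NPC libraries below all hESC libraries, at 3679 to 4223 nt in NPC and 4307 to 4511 nt in hESC. Groups stood apart in further collagens. COL4A1 lay at 6837 to 6987 nt in BafA1 NPC, above 6564 to 6763 nt in control NPC, with 6570 to 6838 nt in hESC. COL4A4 lay at 8651 to 9266 nt in control NPC, above 7373 to 8523 nt in hESC, with 8335 to 9040 nt in BafA1 NPC. COL25A1 spread from 5678 to 10035 nt within control NPC, and COL6A3 from 9108 to 10271 nt within hESC. The length differences were not tested.

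**Figure D4:**
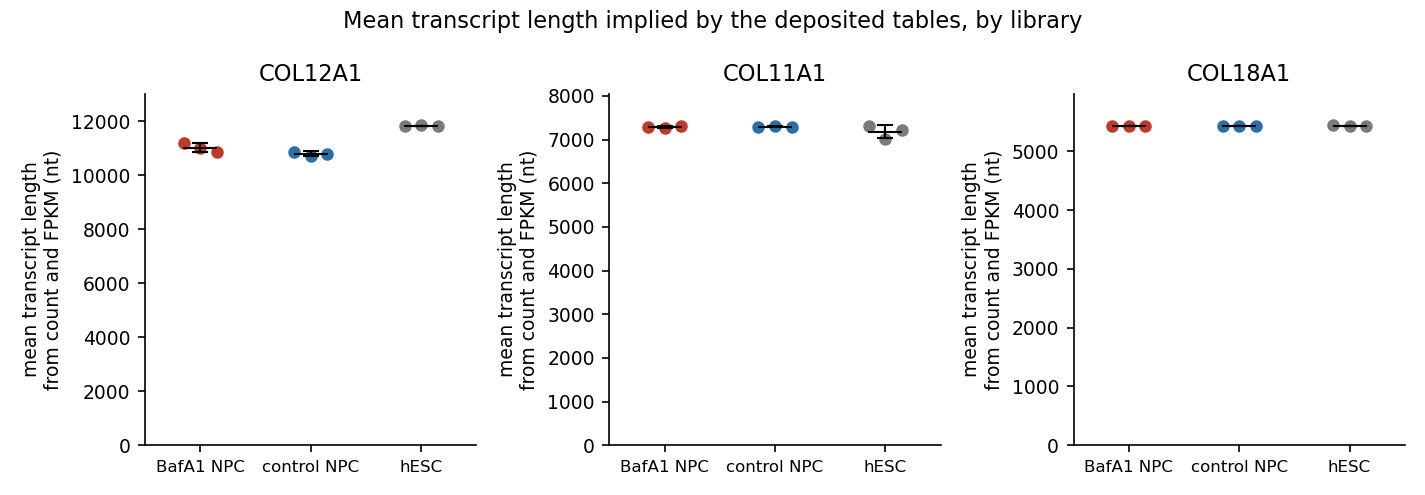
Mean transcript length in nt (vertical axis), from the ratio of deposited count to FPKM, of COL12A1, COL11A1 and COL18A1 in each library of BafA1 NPC, control NPC and hESC, with mean and SD (n = 3). COL12A1 sits at 10693 to 11200 nt in NPC and at 11808 to 11842 nt in hESC.

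Type VI collagen forms beaded microfibrils from 3 unlike chains, and its genes did not move together. COL6A1 had 236, 231 and 259 CPM in BafA1 NPC, against 149, 147 and 137 CPM in control NPC and 172, 156 and 168 CPM in hESC. COL6A2 had 82.1, 86.5 and 95 CPM in BafA1 NPC, against 58.3, 49.3 and 44.1 CPM in control NPC and 173, 149 and 169 CPM in hESC. COL6A3, the largest chain, had 252, 239.9 and 199 CPM in BafA1 NPC, against 272, 201 and 164 CPM in control NPC and 11.4, 9.75 and 12.8 CPM in hESC. BafA1 NPC lay above control NPC without overlap in COL6A1 and COL6A2, while COL6A3 overlapped. The log2 fold changes in BafA1 NPC over control NPC were 0.74 ± 0.08 (SE, adjusted p = 5.52e-05) for COL6A1, 0.80 ± 0.11 (SE, adjusted p = 0.000195) for COL6A2 and 0.12 ± 0.17 (SE, adjusted p = 0.602) for COL6A3. In control NPC over hESC they were -0.19 ± 0.08 (SE, adjusted p = 0.0591) for COL6A1, -1.70 ± 0.11 (SE, adjusted p = 7.92e-08) for COL6A2 and 4.23 ± 0.19 (SE, adjusted p = 3.21e-09) for COL6A3. The COL6A1 value in that comparison depended on the fit, and it became 0.23 (adjusted p = 0.00913) with GC and length trends removed and -0.24 (adjusted p = 0.023) with size factors in place of TMM. COL6A6 had at most 43 counts in a library and was called lower in control NPC than in hESC, at -2.71 ± 0.76 (SE, adjusted p = 0.00787). COL28A1 had 16 to 33 counts and was called in neither comparison.

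Among the remaining kinds, the short-chain and transmembrane collagens gave some of the largest differences. COL8A1, a network collagen of vessel walls and the eye, had 25, 24.7 and 33.3 CPM in BafA1 NPC, against 11.6, 8.85 and 9.9 CPM in control NPC and 1.38, 1.34 and 1.35 CPM in hESC. The 3 groups did not overlap, with 1.45 ± 0.14 (SE, adjusted p = 3.08e-05) in BafA1 NPC over control NPC and 2.90 ± 0.16 (SE, adjusted p = 2.19e-08) in control NPC over hESC. Its partner COL8A2 had 0.437, 0.0975 and 0.155 CPM in BafA1 NPC, against 0.135, 0.169 and 0.387 CPM in control NPC and 5.51, 4.8 and 5.18 CPM in hESC. It went the other way from COL8A1 between control NPC and hESC, at -4.47 ± 0.44 (SE, adjusted p = 2.69e-06), and was not called between the NPC groups, at 0.02 ± 0.51 (SE, adjusted p = 0.989). COL13A1, a transmembrane collagen of cell junctions, had 16.6, 15.3 and 19.6 CPM in BafA1 NPC, against 6.43, 7.03 and 6.88 CPM in control NPC and 7.42, 4.42 and 5.58 CPM in hESC. All BafA1 NPC libraries were above all others, at 1.34 ± 0.18 (SE, adjusted p = 0.000151) over control NPC, and control NPC and hESC overlapped, at 0.22 ± 0.18 (SE, adjusted p = 0.295). That last value was called with GC and length trends removed, at 0.62 (adjusted p = 0.00701), and without the first hESC library, at 0.44 (adjusted p = 0.0429).

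The transmembrane genes COL17A1, COL23A1 and COL25A1 were all called lower in control NPC than in hESC. COL17A1, an anchor of epithelial cells, had 0.091, 0.0487 and 0.0621 CPM in BafA1 NPC, 0.077, 0 and 0.0704 CPM in control NPC and 3.43, 3.24 and 2.32 CPM in hESC, or 8 counts in control NPC together against 535 in hESC. Its log2 fold change in control NPC over hESC was -5.90 ± 0.50 (SE, adjusted p = 7.33e-07). COL23A1 had 6.17, 5.56 and 5.39 CPM in BafA1 NPC, against 3.23, 3.67 and 4.28 CPM in control NPC and 19.8, 15.4 and 16.9 CPM in hESC. It stood apart in all 3 groups, called higher in BafA1 NPC than in control NPC (0.61 ± 0.15 (SE, adjusted p = 0.00668)) and lower in control NPC than in hESC (-2.22 ± 0.15 (SE, adjusted p = 1.09e-07)). COL25A1, a collagen of brain, had 3.79, 1.95 and 3.68 CPM in BafA1 NPC, 3.95, 3.23 and 3.03 CPM in control NPC and 8.45, 10.6 and 9.75 CPM in hESC, with -0.10 ± 0.23 (SE, adjusted p = 0.752) between the NPC groups and -1.50 ± 0.23 (SE, adjusted p = 0.000109) in control NPC over hESC.

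COL7A1 forms the anchoring fibrils under epithelia. It had 65.9, 69.6 and 86.5 CPM in BafA1 NPC, against 52.6, 49.7 and 38.7 CPM in control NPC and 10.2, 9.03 and 9.04 CPM in hESC. The groups did not overlap, with 0.65 ± 0.13 (SE, adjusted p = 0.00202) in BafA1 NPC over control NPC and 2.32 ± 0.14 (SE, adjusted p = 3.64e-08) in control NPC over hESC. COL26A1, first described in gonads of the mouse, had 39.2, 36.9 and 26 CPM in BafA1 NPC, against 54.2, 45.8 and 45.7 CPM in control NPC and 93.6, 89 and 83.1 CPM in hESC. It was lowest in BafA1 NPC and highest in hESC without overlap, with -0.51 ± 0.14 (SE, adjusted p = 0.0106) in BafA1 NPC over control NPC and -0.87 ± 0.14 (SE, adjusted p = 0.000136) in control NPC over hESC. The 3 genes under the filter had almost no counts. COL10A1 had 4 counts in all of hESC and none in NPC, COL19A1 had 4 in control NPC and none elsewhere, and COL6A5 had 17 in hESC and none in NPC.

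The ratio of counts of chains that assemble in 1 molecule was followed within each library, which needs no scaling between libraries. Counts are not corrected for length, so a ratio can be compared between groups but does not give the proportion of the chains. The 20 comparisons of ratios were tested by a two-sided exact permutation test, whose smallest p with 3 against 3 libraries is 0.1 (0.143 after adjustment over the 20), so that none could pass 0.05. COL4A1 over COL4A2 was 1.03 ± 0.0901 in BafA1 NPC, 0.843 ± 0.0204 in control NPC and 0.994 ± 0.0167 in hESC (SD, n = 3). The control NPC ratios lay below both other groups without overlap, so the second chain was relatively higher there. COL1A1 over COL1A2 was 1.79 ± 0.0978 in BafA1 NPC, 1.63 ± 0.0911 in control NPC and 0.689 ± 0.0208 in hESC, a ratio above 1 in all NPC libraries and below 1 in all hESC libraries. COL6A3 over COL6A2 was 2.64 ± 0.499 in BafA1 NPC, 4.15 ± 0.474 in control NPC and 0.0688 ± 0.00581 in hESC, with no overlap between groups. In FPKM, COL6A3 and COL6A2 had means of 20.4 and 20.9 in BafA1 NPC, 21.1 and 13.2 in control NPC and 1.04 and 41.5 in hESC. COL6A1 over COL6A2 was 2.76 ± 0.102 in BafA1 NPC and 2.89 ± 0.285 in control NPC, which overlapped, and 1.01 ± 0.0311 in hESC. COL9A3 over COL9A2 was 0.469 ± 0.0215 in BafA1 NPC, 0.133 ± 0.0429 in control NPC and 3.97 ± 0.101 in hESC. The order of the type IX chains thus turned between hESC and both NPC groups.

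Enzymes that modify collagen in the endoplasmic reticulum were called higher in BafA1 NPC more often than lower. Of 12 genes of prolyl hydroxylation and folding, 7 were called higher and 1 lower (median log2 fold change 0.39), and of 5 genes of lysyl hydroxylation and glycosylation 3 were called higher and none lower (median 0.74). Of all genes, 20.8% were called higher and 20.7% lower. The catalytic prolyl 4-hydroxylase subunit P4HA1 had 789, 853 and 1286 CPM in BafA1 NPC, against 208, 328 and 401 CPM in control NPC and 131, 124 and 163 CPM in hESC. P4HA2 had 125, 108 and 149 CPM in BafA1 NPC, against 42.6, 46 and 53.4 CPM in control NPC and 33.8, 29.4 and 43.2 CPM in hESC. Neither gene overlapped between the NPC groups, with log2 fold changes of 1.64 ± 0.24 (SE, adjusted p = 0.000259) for P4HA1 and 1.43 ± 0.15 (SE, adjusted p = 4.49e-05) for P4HA2. The prolyl 3-hydroxylase P3H2, which acts on type IV collagen, was at 1.40 ± 0.12 (SE, adjusted p = 1.73e-05) and CRTAP, a member of the prolyl 3-hydroxylation complex, at 0.76 ± 0.08 (SE, adjusted p = 3.01e-05). The lysyl hydroxylase PLOD2 had 881, 817 and 1297 CPM in BafA1 NPC, against 273, 404 and 434 CPM in control NPC and 199, 177 and 241 CPM in hESC, without overlap between the NPC groups. Its change was 1.43 ± 0.21 (SE, adjusted p = 0.000261), that of PLOD1 was 1.23 ± 0.11 (SE, adjusted p = 1.99e-05) and that of the galactosyltransferase gene COLGALT2 was 0.74 ± 0.12 (SE, adjusted p = 0.000559). SERPINH1, the chaperone that binds only collagen, had 345, 374 and 376 CPM in BafA1 NPC, against 387, 346 and 287 CPM in control NPC and 529, 492 and 514 CPM in hESC. It overlapped between the NPC groups and was not called, at 0.10 ± 0.11 (SE, adjusted p = 0.473).

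Of 8 genes for export from the endoplasmic reticulum none was called higher and 6 were called lower in BafA1 NPC (median -0.30), beside 20.8% and 20.7% of all genes. The cargo receptor genes MIA2 and MIA3 had log2 fold changes of -0.56 ± 0.10 (SE, adjusted p = 0.000846) for MIA2 and -0.31 ± 0.07 (SE, adjusted p = 0.00353) for MIA3, and PREB, the activator of the coat GTPase, of -0.42 ± 0.10 (SE, adjusted p = 0.00618). The MIA3 call was lost with GC and length trends removed, at -0.14 (adjusted p = 0.111). Of 8 propeptide processing genes none was called higher and 2 were called lower, a number near the 20.7% of all genes called lower. These were ADAMTS3 at -0.48 ± 0.15 (SE, adjusted p = 0.0252) and TLL1 at -1.23 ± 0.40 (SE, adjusted p = 0.0291), and the call was lost in 5 of 19 alternatives for ADAMTS3 and in 6 for TLL1. ADAMTS2 was not called, at -0.33 ± 0.17 (SE, adjusted p = 0.141), but was called with library totals alone, at -0.46 (adjusted p = 0.0467), and with GC and length trends removed, at -0.50 (adjusted p = 0.0303).

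Cross-linking genes were called higher in 4 of 7 and lower in none (median 1.23), beside 20.8% higher and 20.7% lower of all genes. The lysyl oxidase LOX had 98.1, 72.6 and 136 CPM in BafA1 NPC, against 19, 22.4 and 24.6 CPM in control NPC and 8.31, 7.27 and 10.5 CPM in hESC. Every BafA1 NPC library was far above every control NPC library, at 2.22 ± 0.21 (SE, adjusted p = 2.3e-05). Its relatives LOXL3 and LOXL2 were at 1.38 ± 0.11 (SE, adjusted p = 1.16e-05) for LOXL3 and 1.23 ± 0.14 (SE, adjusted p = 6.5e-05) for LOXL2, and the transglutaminase TGM2, chosen after its values were seen, was at 1.66 ± 0.27 (SE, adjusted p = 0.000593). Of 10 receptor genes 4 were called higher and none lower (median -0.09), beside the same shares of all genes. Among the 4 were DDR1 at 0.75 ± 0.09 (SE, adjusted p = 0.000113), the endocytic collagen receptor MRC2 at 0.71 ± 0.10 (SE, adjusted p = 0.0002) and ADGRG1 at 0.58 ± 0.18 (SE, adjusted p = 0.0216). The ADGRG1 call was lost in 7 of 19 alternatives.

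Of 10 tested genes of collagen degradation and its inhibitors 2 were called higher and 4 lower, beside 20.8% and 20.7% of all genes, so the number higher was near the background. TIMP3, an inhibitor held in the matrix, was at 1.49 ± 0.12 (SE, adjusted p = 1.16e-05), the inhibitor TIMP4 at -2.08 ± 0.33 (SE, adjusted p = 0.000501) and the membrane collagenase MMP14 at -0.75 ± 0.15 (SE, adjusted p = 0.00195). Of 13 collagen-binding matrix proteins 5 were called higher and 4 lower, beside the same shares. The basement membrane proteins perlecan, HSPG2, and VWA1 were higher, at 1.00 ± 0.13 (SE, adjusted p = 0.000131) for HSPG2 and 1.42 ± 0.10 (SE, adjusted p = 6.13e-06) for VWA1. The called falls were all in small leucine-rich proteoglycans, which bind fibrils. LUM had 9.87, 12 and 8.55 CPM in BafA1 NPC, against 33.7, 30.0 and 33.2 CPM in control NPC and no count in hESC, a log2 fold change of -1.67 ± 0.14 (SE, adjusted p = 3.13e-05) between the NPC groups. The others, chosen after their values were seen, were DCN at -3.45 ± 0.50 (SE, adjusted p = 0.000262), PRELP at -2.17 ± 0.32 (SE, adjusted p = 0.00032) and BGN at -0.67 ± 0.15 (SE, adjusted p = 0.0049). DCN and LUM are also in the mesenchyme list. Of 7 tested transcription factors of collagen genes, RUNX2 (1.63 ± 0.11 (SE, adjusted p = 4.68e-06)) and CREB3L1 (0.94 ± 0.11 (SE, adjusted p = 6.6e-05)) were called higher and SOX9 was called lower, again beside 20.8% and 20.7% of all genes. The numbers in both directions were near these shares.

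**Figure D5:**
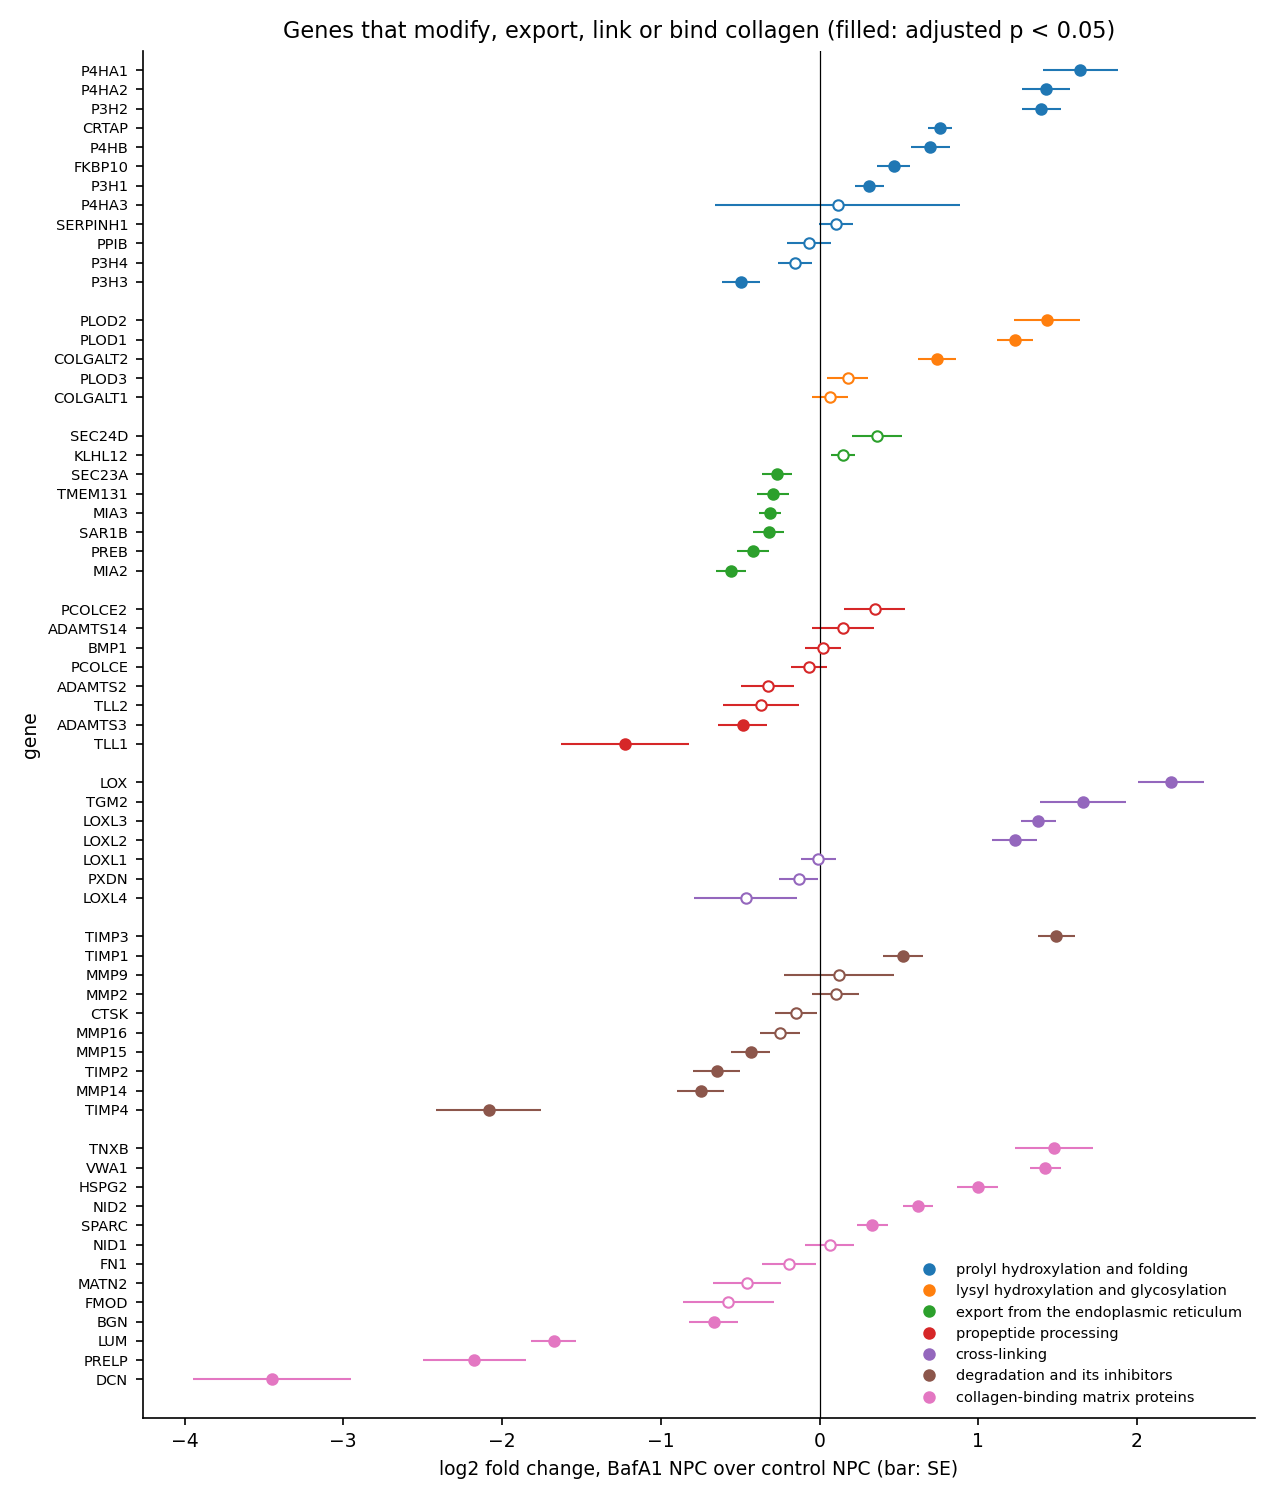
Log2 fold change (horizontal axis, bar: SE) in BafA1 NPC over control NPC of genes that modify, export, process, cross-link, degrade or bind collagen, grouped by list. Filled points passed an adjusted p of 0.05. LOX lies farthest right at 2.22, the export genes lie mostly left of 0, and DCN lies farthest left at -3.45.

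In control NPC against hESC the same lists gave 46 of 80 tested genes higher and 19 lower, beside 33% and 31.6% of all genes. The counts in BafA1 NPC over control NPC were 27 higher and 18 lower, the second near the 20.7% of all genes. Prolyl hydroxylation and folding had 6 higher and 2 lower, with SERPINH1 lower in control NPC than in hESC at -0.59 ± 0.11 (SE, adjusted p = 0.000464). All 8 propeptide processing genes were called, 3 higher and 5 lower. Receptors had 8 of 10 higher and 1 lower, and collagen-binding matrix proteins 8 of 13 higher and 2 lower.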

How the data were processed

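Messenger RNA of 9 libraries was analysed from the authors' deposited tables. Per the labels' protocols, libraries were made with a stranded mRNA kit. Per the submitters' processing notes, reads were trimmed with Trimmomatic and the build was GRCh38. The aligner, the counting tool and its use of strand, and all versions, are not given in these sources. Per the file headers, 1 deposited table holds raw read counts per gene and 3 tables hold FPKM values, which the authors normalised. Columns named as control were read as untreated NPC, since the other 2 groups are named in the headers, and 0 value columns were unused. Exons of 9 collagen genes (COL5A3, COL4A2, COL4A3, COL15A1, COL18A1, COL9A1, COL9A3, COL16A1 and COL19A1) overlap exons on the other strand, and their values are uncertain to that extent.

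Counts were tested with edgeR 4.0.16 in R 4.3.3: filterByExpr, TMM scaling, a quasi-likelihood fit over all 9 libraries with 1 term per group, two-sided tests and Benjamini-Hochberg adjustment over all genes tested. The procedure was tested on simulated data. Alternatives were DESeq2 1.42.0, other scalings, no filter, limma 3.58.1 on log2(FPKM + 1) and log2(FPKM + 0.1) for genes with at least 0.1 FPKM in 3 libraries, a replicate block, removal of GC and length trends (GENCODE 29), only the compared groups, and leaving out each library. Chain ratios were tested with SciPy 1.17.1, for pairs with at least 10 counts in each library. Transcript lengths from count and FPKM were scaled on 1593 single-transcript genes. The floor is 3 counts per library, 0.043 to 0.0696 CPM, and floors and intervals cover counting error only.

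The members, the lists and the tests were chosen with earlier results of these data known. Values in every library are given for 16 chosen collagens, for up to 12 called collagens with the largest changes and at least 1 CPM in each comparison, and for those reaching 20 CPM. Other collagens are given in brief. Up to 3 members of each partner list with the smallest adjusted p in BafA1 NPC over control NPC are named, and always SERPINH1, P4HA1, P4HA2, PLOD2 and LOX.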

Additional observations from a re-analysis of the deposited data

How the results depend on the processing

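Over the 19 alternatives run for each comparison, the number of collagens called in BafA1 NPC over control NPC was 16 to 22 higher and 2 to 4 lower. In control NPC over hESC it was 19 to 25 higher and 12 to 15 lower, and in BafA1 NPC over hESC 24 higher and 12 or 13 lower. All 228 counts of calls stayed within 1.5 times their main value, and the 20 chain ratios moved by less than the spread between replicates. The 8 ratios of summed CPM did so too, but shares of library counts were the only alternative tried for them. In FPKM the direction of 1 turned: other collagens in control NPC over hESC had a ratio of 1.14 in CPM and 0.80 in FPKM. Of 1822 values of single named collagens, 1762 kept their direction and their side of the threshold, 17 lost a call, 11 gained one and 32 changed sign. Of 551 values of named partner genes, 520 kept both, 20 lost a call, 3 gained one and 8 changed sign. Leaving out libraries one at a time changed no sign of a called value among these named collagens. COL11A2, COL4A3, COL20A1, COL6A6, COL23A1 and COL25A1 were also called in at least 1 comparison. Their single values were not followed through the alternatives.

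All these changes of sign, in the named genes, were in values that had not been called, and the cause was not tested. In BafA1 NPC over control NPC, library totals alone gave log2 fold changes of -0.0254 for COL27A1, -0.11 for COL4A5, -0.0729 for COL4A6, -0.0043 for COL6A3, -0.0932 for COL8A2 and -0.0255 for SERPINH1. This scaling shifted the median of all genes by -0.12. With limma on log2(FPKM + 1) the values were -0.0635 for COL27A1, -0.11 for COL4A5, -0.11 for COL4A6, -0.0236 for COL6A3, -0.0057 for COL8A2, 0.0162 for ADAMTS2 and -0.0363 for SERPINH1. With limma on log2(FPKM + 0.1) they were -0.0716 for COL27A1, -0.12 for COL4A5, -0.12 for COL4A6, -0.0235 for COL6A3, -0.0516 for COL8A2, 0.0429 for ADAMTS2 and -0.0364 for SERPINH1. With GC and length trends removed and no replicate block they were 0.0097 for COL12A1, -0.13 for COL8A2 and -0.0616 for SERPINH1, and with these trends removed and a replicate block 0.0177 for COL12A1, -0.18 for COL8A2 and -0.0588 for SERPINH1. Leaving out 1 library at a time gave -0.0768 to 0.75 for COL4A4, -0.0679 to 0.0941 for COL4A5, -0.11 to 0.14 for COL4A6, -0.80 to 0.61 for COL8A2, -0.10 to 0.94 for COL17A1, -0.0385 to 0.33 for COL6A3 and -0.0059 to 0.21 for SERPINH1. In control NPC over hESC, COL6A1 turned to 0.23 with GC and length trends removed, both without and with a replicate block, and was then called.

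Libraries with the same replicate number did not deviate together, with correlations of -0.06 to 0.09 between same-numbered libraries, so the numbers were not taken to pair them. With the number as a block, 19 collagens were called higher and 3 lower in BafA1 NPC over control NPC, 21 and 14 in control NPC over hESC and 24 and 13 in BafA1 NPC over hESC. The uncalled COL8A2 then stood at -0.0374 in BafA1 NPC over control NPC, a change of sign.

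Limits of depth concern COL10A1, COL19A1, COL6A5, COL6A6, COL15A1, COL17A1, COL20A1, COL28A1, COL3A1, COL8A2 and COL24A1, which had few counts in at least 1 group. With 3 libraries a group, an uncalled difference does not show that groups were alike.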
